A study of Mus musculus with 10 samples.

Results

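Lung and ear fibroblasts were compared at 12 h, with every gene of the deposited table that reached 1 TPM in at least 2 of the 5 libraries of that time. TPM expresses a transcript's abundance, corrected for its length, as a share of the library, and the values of all transcripts of a gene were summed. Of 22594 genes, 12858 met this rule and are the genes described here. The 5 libraries, of 10 in the series, were mouse cells labelled as fibroblasts, 2 from lung and 3 from ear, and every group of the series carried the condition post-mortem. The remaining libraries held the same tissues at 0 h, 2 of lung and 3 of ear, and served for comparison between times. The sources used here do not give strain, sex, age, the number of animals, or whether or how the cells were grown before extraction. Nothing in the labels says that the libraries of a group came from separate animals, so each p measures the spread between these libraries, part of which may be technical.

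The 5 libraries held 12103 to 12337 genes at 1 TPM or more. The share of TPM in mitochondrially encoded transcripts was 0.641% to 1.30%, and that in the 100 most abundant genes 35.3% to 39.2%. TPM keeps no read counts, so the depth behind a value is unknown. Across the genes tested, log2(TPM + 1) correlated at 0.945 between the lung libraries, at 0.953 to 0.978 between ear libraries and at 0.798 to 0.88 between tissues. The label fibroblast was checked against marker genes. Col1a1, which encodes a chain of type I collagen, was at 563 and 601 TPM in lung and 634, 756 and 373 TPM in ear, and these ranges overlap. The intermediate filament gene Vim was abundant in each library, at 1239 and 2794 TPM in lung and 2109, 2998 and 2111 TPM in ear. Col1a1 had the highest log2 fold change of the 16 fibroblast markers described below. Of those markers, 7 were lower in lung and 0 higher. Epcam, an epithelial marker, did not exceed 1.52 TPM, and the T cell marker Cd3e did not exceed 0.0633 TPM. Another lymphocyte marker, Trac, was at 3.88 and 3.96 TPM in lung and 0.565, 0.850 and 0.204 TPM in ear. Ptprc, the common marker of blood-derived cells, was at 11.6 and 42.2 TPM in lung and 0.165, 0.0374 and 0.166 TPM in ear. Lung libraries thus held transcripts of fibroblasts and of leukocytes.

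Fibroblasts are the connective tissue cells that build and remodel extracellular matrix. They keep a record of where in the body they arose, carried by transcription factor genes such as those of the T-box, forkhead and homeobox families that patterned the embryo. The mesenchyme of the lung grows from visceral mesoderm around the foregut, whereas the connective tissue of the head, the outer ear included, draws in part on the neural crest. Macrophages are phagocytes of the immune system, resident in lung tissue. Contractile fibroblasts and smooth muscle cells share a set of actin, myosin and calponin genes.

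Start regions of 4 genes are shown first because the lists they belong to are among those with the widest separations described below. Within those lists, the genes were chosen among called members whose sequence held the motif marked. Lyz2 and C1qc are from the macrophage and phagocyte lists, which were higher in lung. Both carry the letters AGGAAGT, the core bound by factors of the ETS family, read on the opposite strand. Myl9 is from the contractile list, also higher in lung, and Actc1 from the striated muscle list, which was lower in lung. These 2 carry a CArG box, the motif bound by serum response factor. Most promoters of these lists lacked the motif. AGGAAGT was held by 3 of 8 macrophage and 4 of 16 phagocyte promoters searched. The CArG box was held by 5 of 23 contractile and 2 of 17 striated muscle promoters. Each sequence is the 250 bases before the RefSeq start site on GRCm38.p6, written 5′ to 3′ on the gene's strand, with the motif in capitals.
Lyz2 (chr10:117282273-117282522, minus strand): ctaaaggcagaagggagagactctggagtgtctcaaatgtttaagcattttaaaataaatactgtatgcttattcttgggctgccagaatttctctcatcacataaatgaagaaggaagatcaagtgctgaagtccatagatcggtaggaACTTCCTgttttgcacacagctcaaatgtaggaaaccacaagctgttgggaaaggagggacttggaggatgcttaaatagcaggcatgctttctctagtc
C1qc (chr4:136892915-136893164, minus strand): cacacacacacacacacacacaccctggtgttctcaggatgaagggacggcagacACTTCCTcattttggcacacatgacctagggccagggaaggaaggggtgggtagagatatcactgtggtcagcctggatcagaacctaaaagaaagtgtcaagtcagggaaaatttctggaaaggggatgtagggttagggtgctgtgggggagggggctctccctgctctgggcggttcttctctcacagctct
Myl9 (chr2:156775214-156775463, plus strand): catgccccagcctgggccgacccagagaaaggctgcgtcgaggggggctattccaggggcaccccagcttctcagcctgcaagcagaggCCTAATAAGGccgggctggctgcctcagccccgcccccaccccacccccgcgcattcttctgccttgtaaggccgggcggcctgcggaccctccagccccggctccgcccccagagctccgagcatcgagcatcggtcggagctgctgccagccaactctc
Actc1 (chr2:114052876-114053125, minus strand): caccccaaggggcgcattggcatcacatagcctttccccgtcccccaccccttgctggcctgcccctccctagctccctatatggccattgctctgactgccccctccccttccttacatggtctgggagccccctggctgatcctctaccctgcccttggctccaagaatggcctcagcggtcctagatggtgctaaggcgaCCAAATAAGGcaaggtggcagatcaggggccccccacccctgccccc

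Among members that passed the filter, the lists with medians farthest from 0 on the lung side held macrophage, phagocyte, Hox and contractile genes. On the ear side they held factors of skin and head mesenchyme, striated muscle genes and retinoid genes. Without the filter the Hox median was 0.37 and that of the skin and head factors -0.47, so their place rests on the filter. The other medians named were then 5.06, 4.70 and 2.17 on the lung side, and -2.12 and -1.41 on the ear side. Values were compared as log2(TPM + 1) with limma, which fits a linear model to each gene, and a gene is called higher or lower in lung where its Benjamini-Hochberg adjusted p was under 0.05. Of the 12858 genes, 2254 were called, which is 17.5%. There were 1046 higher in lung, 8.14%, and 1208 lower, 9.39%. Differences of 2-fold or more on this scale numbered 873 higher and 821 lower, and those of 8-fold or more 237 and 142. The median log2 fold change of all genes, lung minus ear, was -0.14, so values of a gene list are read against that background. Each 12 h library was then left out in turn, and 974 calls (7.58%) stood in all 5 fits, 557 higher (4.33%) and 417 lower (3.24%). These are called stable below, and a bracketed value with no other name is a log2 fold change on this scale. Without lung number 2 the count of calls was 1355, 700 higher and 655 lower. The lower count was also 761 without ear number 1 and 799 without ear number 3.

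The lung and ear values did not overlap for 6054 genes, 47.1% of those tested, with both lung libraries above the ear libraries for 16.8% and below them for 30.3%. Absence of overlap between 2 and 3 libraries is therefore common here. The genes called higher took 15.6% and 19.2% of TPM in lung and 3.93% to 5.49% in ear. The genes called lower took 3.39% to 3.64% in lung and 10.2% to 15.02% in ear. Of the genes called higher, 377 were below 1 TPM in every ear library, and of those called lower, 273 were below 1 TPM in both lung libraries. Such a gene passes the expression filter through the other tissue, so its direction is partly built in. This holds for many members of the lists that follow, whose counts describe only the genes that passed the filter. It holds for genes named with p-values, among them Tbx4, Foxf1, Hoxa5, Mmp10, Ptger2, Kcnj8, Msr1, Spi1, Csf1r and Npy, below 1 TPM in each ear library. Irx1, Axin2 and Myl1 were likewise below 1 TPM in both lung libraries. The p-values of such genes are not separate support for their direction. A bulk library also cannot tell fewer cells of a type from less RNA per cell.

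**Figure D1:**
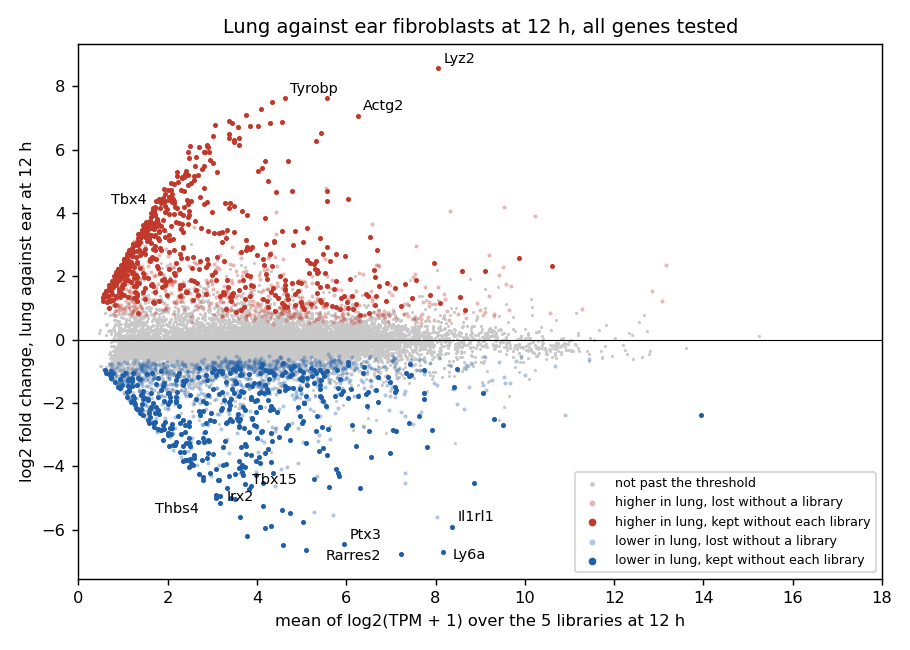
Each point is 1 of the 12858 genes tested; the horizontal axis is its mean log2(TPM + 1) over the 5 libraries at 12 h and the vertical axis its log2 fold change, lung against ear. Red and blue mark the 1046 genes higher and the 1208 lower in lung, with full colour for the 557 and 417 whose call stood without each library; Lyz2 reaches 8.57 and Rarres2 -6.78.

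**Figure D2:**
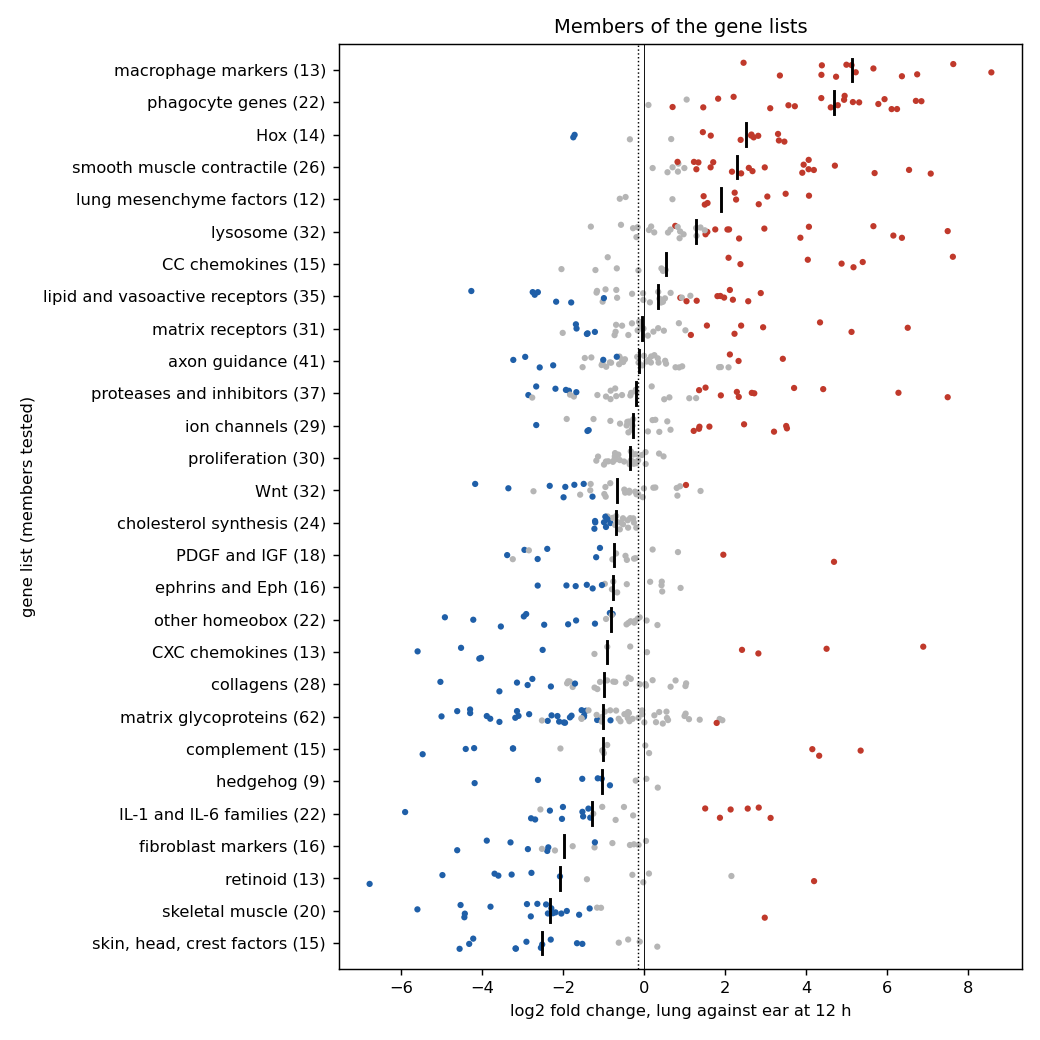
Each point is a member of a gene list, with the number of members tested in brackets; the horizontal axis is the log2 fold change, lung against ear at 12 h. Red points were called higher and blue points lower, grey points were not called, black bars are list medians, and the dotted line is the median of all genes. The medians run from 5.12 for macrophage markers to -2.52 for factors of skin, head and neural crest mesenchyme. They cover only members that passed the filter, and without it these 2 medians were 5.06 and -0.47.

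Factors that pattern the lung mesenchyme were mostly higher in lung. Tbx4, a T-box gene of lung and hindlimb mesenchyme, was at 21.6 and 12.8 TPM in the lung libraries and 0.0807, 0.0511 and 0.0216 TPM in the ear libraries (log2 fold change 4.07, SE 0.28, limma adjusted p = 3.17e-05). Both lung libraries lay far above an ear level near 0, and Tbx4 passed the filter through lung alone. Foxf1, which encodes a forkhead factor of visceral mesoderm, was at 21.6 and 18.4 TPM in lung and 0.743, 0.940 and 0.903 TPM in ear (3.49, SE 0.19, adjusted p = 1.82e-05), again without overlap and with little spread within a tissue. Tbx2 was at 10.6 and 9.51 TPM in lung and 0.351, 0.425 and 0.243 TPM in ear (3.04). Tbx5, a T-box gene of heart, forelimb and lung, differed between the lung libraries, at 10.8 and 3.33 TPM, and was at 0, 0 and 0.00928 TPM in ear. Tcf21, a bHLH factor gene of lung fibroblasts, was at 6.65 and 1.90 TPM in lung and listed at 0 in the 3 ear libraries. All 12 members of the lung mesenchyme list passed the filter; 9 were higher, 8 of them stably, 0 were lower, and the median was 1.90. The others called were Foxf2, Hlx, Tbx3 and Gata6, and Meox2, Osr1 and Zeb2 were not called, with -0.60, -0.46 and 0.70. Tbx4 lies on chromosome 11 at 85886422 to 85916097 and Foxf1 on chromosome 8 at 121084386 to 121088144 (GRCm38).

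Factors of skin, head and neural crest mesenchyme showed the opposite order. Tbx15, a T-box gene of skin and craniofacial mesenchyme, was at 1.29 and 0.724 TPM in lung and 62.6, 34.1 and 44.9 TPM in ear (-4.56, SE 0.25, limma adjusted p = 1.82e-05). The lowest ear library was well above the higher lung library. Twist1, a bHLH factor gene of cranial mesenchyme, was at 2.72 and 2.37 TPM in lung and 74.5, 58.5 and 62.98 TPM in ear (-4.22), and Twist2, its relative of dermal mesenchyme, at 2.51 and 4.11 TPM in lung and 28.96, 30.6 and 32.9 TPM in ear (-2.91). Sox9, a factor of cartilage and neural crest, was at 0.162 and 0.131 TPM in lung and 27.6, 20.9 and 18.2 TPM in ear (-4.32). Msx1, a homeobox gene of craniofacial mesenchyme, was at 1.32 and 0.713 TPM in lung and 17.2, 16.8 and 16.7 TPM in ear, and these ear values were nearly equal. Dlx6, a distal-less homeobox gene of the pharyngeal arches, was listed at 0 in both lung libraries and was at 7.58, 7.63 and 8.97 TPM in ear. Of 30 genes listed, 15 passed the filter; 11 were lower in lung, each stably, and 0 were higher, with a median of -2.52, or -0.47 over all 30 without the filter. Prrx1, a homeobox gene of limb and head mesenchyme that fibroblasts of several organs express, was also lower (-1.66), and Tbx18, Shox2, Foxc2 and Sox10 were not called. Tbx15 lies on chromosome 3 at 99240381 to 99354259 and Sox9 on chromosome 11 at 112782224 to 112787760.

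Hox genes, which encode the homeobox factors that record position along the body axis, were mostly on the lung side. Hoxa5, which acts in lung mesenchyme, was at 13.9 and 7.53 TPM in lung and 0.0247, 0.0235 and 0.0199 TPM in ear (3.46, SE 0.24, limma adjusted p = 3.31e-05). Hoxb6 was at 12.96 and 6.22 TPM in lung and listed at 0 in the 3 ear libraries. Hoxb2 and Hoxb7 were higher by log2 fold changes of 3.31 and 2.82. The values in lung number 1 exceeded those in number 2 by 1.5-fold or more for 8 of the 14 members tested, and the reverse held for 1. Of 39 genes in the 4 clusters, 14 passed the filter. Of these, 10 were higher, each stably, and 2 were lower. The median was 2.51, or 2.09 without lung number 1 and 2.84 without lung number 2. Over all 39 genes without the filter it was 0.37. The 2 lower in lung were Hoxa2, which patterns a pharyngeal arch that contributes to the ear, at 3.64 and 1.52 TPM in lung and 14.8, 7.86 and 9.11 TPM in ear (-1.72, call lost without lung number 2), and Hoxd8, at 0.382 and 0.180 TPM in lung and 3.16, 2.71 and 4.13 TPM in ear (-1.75). A run of 7 neighbouring genes of the B cluster, Hoxb8 to Hoxb2, on chromosome 11 at 96281905 to 96354012, was higher in lung without a gap among the genes tested. No gene of the C cluster passed the filter.

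Other homeobox genes were lower in lung or not called. The Iroquois genes, which pattern skin, limb and nervous tissue, were among those lower. Irx1 was at 0.492 and 0.189 TPM in lung and 27.97, 23.2 and 20.8 TPM in ear (-4.22, SE 0.22, limma adjusted p = 1.82e-05), and Irx3 and Irx5 were lower, with log2 fold changes of -2.97 and -3.54. Irx2 was at 0.112 and 0.212 TPM in lung and 22.9, 98.2 and 17.3 TPM in ear (-4.92); ear number 2 stood above the other ear libraries, and the groups did not overlap. Of 36 genes listed, 22 passed the filter. Of these, 11 were lower, 8 stably, and 0 were higher. The median was -0.82, or -0.38 without the filter. The TALE homeobox genes Meis1 and Meis2, whose products bind DNA together with Hox proteins, were among those lower, at -0.85 and -2.47. Nuclear receptor genes had 1 higher and 4 lower of 26 tested, a share near that of all genes. Nr2f2, the orphan receptor gene COUP-TFII of visceral mesenchyme, was at 38.5 and 40.95 TPM in lung and 9.11, 17.6 and 10.7 TPM in ear (1.65). Nr3c1, the glucocorticoid receptor gene, was lower, with a log2 fold change of -1.05. The lower count of nuclear receptors was 2 without ear number 1 or lung number 1 and 1 without lung number 2.

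**Figure D3:**
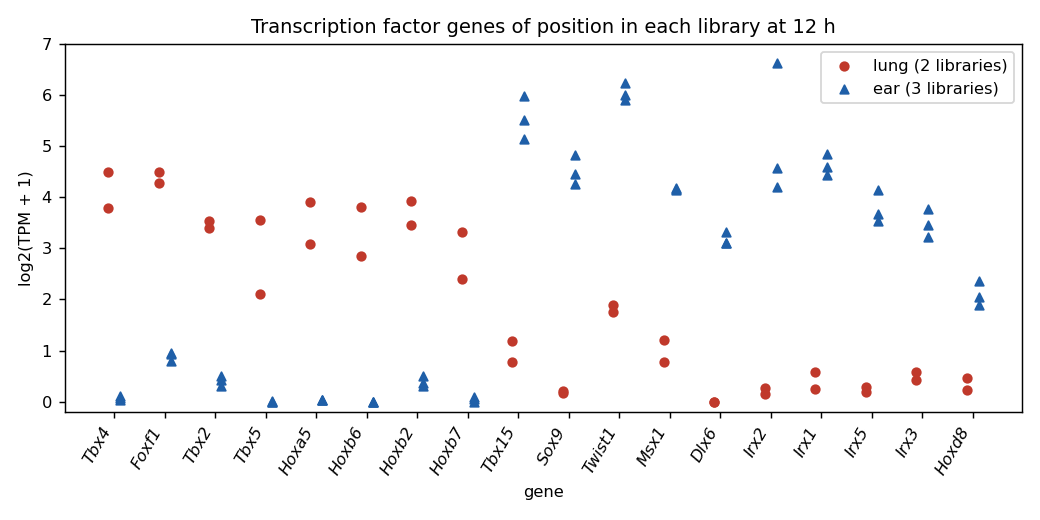
Each point is 1 library at 12 h, red circles for the 2 lung and blue triangles for the 3 ear libraries; the vertical axis is log2(TPM + 1) of the gene named below it. The 8 genes on the left are higher in both lung libraries and the 10 on the right higher in the 3 ear libraries, with no overlap for any of them.

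Hedgehog co-receptor genes were lower in lung. Hedgehog ligands bind the receptor Patched with help from the co-receptors Gas1, Cdon and Boc, which releases the transducer Smo. Gas1 was at 1.40 and 1.05 TPM in lung and 47.02, 32.5 and 39.9 TPM in ear (-4.19, SE 0.27, limma adjusted p = 2.81e-05). Cdon was at 1.65 and 1.28 TPM in lung and 17.2, 13.8 and 11.8 TPM in ear (-2.62). Both genes were low in each lung library and did not overlap between tissues. Boc and Smo were lower, with log2 fold changes of -1.53 and -1.15, and the Boc call was lost without lung number 2. Of 14 genes listed, 9 passed the filter, 6 were lower, 3 stably, and the median was -1.05, or -0.42 without the filter. The receptor and target gene Ptch1 was not called (-0.21), and the ligand genes Shh and Ihh and the target Gli1 did not pass the filter.

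Retinoid genes were mostly lower in lung. Aldh1a2, which encodes the embryonic enzyme that makes retinoic acid, was at 31.2 and 19.5 TPM in lung and 1.06, 0.164 and 0.149 TPM in ear (4.20, SE 0.34, limma adjusted p = 7.48e-05). Another gene of its family, Aldh1a1, was higher in ear, at 48.5 and 27.2 TPM in lung and 223, 136 and 127 TPM in ear (-2.08). Crabp1, which encodes a cytoplasmic carrier of retinoic acid, was at 13.2 and 28.01 TPM in lung and 296, 219 and 274 TPM in ear (-3.69). Cyp26b1, whose enzyme degrades retinoic acid, was at 0.641 and 0.127 TPM in lung and 26.1, 6.35 and 10.4 TPM in ear (-3.27), with ear number 1 above the others. Rarres2, the retinoid-responsive gene that encodes the chemoattractant chemerin, was at 12.6 and 4.90 TPM in lung and 3544, 169.7 and 1569 TPM in ear (-6.78, SE 1.19, adjusted p = 0.00484). The ear libraries spread widely for Rarres2, and the lowest was still above lung. Of 13 members tested, 1 was higher and 7 lower, 1 and 6 stably. The median was -2.08, or -1.41 without the filter and -1.67 without lung number 2.

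Growth factor genes of the insulin-like family differed in opposite directions. Igf1, which encodes insulin-like growth factor 1, was at 159.5 and 235 TPM in lung and 13.3, 5.74 and 3.46 TPM in ear (4.69, SE 0.60, limma adjusted p = 9.50e-04). Igf2, the fetal ligand gene, was at 0.310 and 0.0662 TPM in lung and 9.07, 4.92 and 11.9 TPM in ear (-2.96). Binding protein genes Igfbp4 and Igfbp6 were lower in lung, with log2 fold changes of -3.38 and -2.63, with Igfbp4 at 36.1 and 80.5 TPM in lung and 991, 396 and 478 TPM in ear. Ligand levels thus crossed between tissues for both genes without overlap. In the list of 18 PDGF and IGF genes, 2 were higher and 6 lower, and the median was -0.74. Without ear number 1 or lung number 2 the counts were 1 and 4, and without ear number 3 they were 1 and 7. The median was -1.14 without lung number 1. Pdgfra, a receptor gene of fibroblasts, was at 92.9 and 35.5 TPM in lung and 682, 166 and 253 TPM in ear; its call (-2.39, adjusted p = 0.0494) was lost without ear number 1, ear number 3 or either lung library.

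Wnt genes, which act in hair follicle and lung mesenchyme alike, had 1 member higher and 8 lower of 32 tested from 58 listed. The shares of all genes were 8.14% and 9.39%. Their median was -0.66, or -0.15 without the filter. Wnt16, a ligand gene, was at 0.0338 and 0 TPM in lung and 20.2, 3.74 and 10.1 TPM in ear. Axin2, a target and feedback inhibitor of the pathway, was at 0.463 and 0.212 TPM in lung and 7.20, 4.32 and 5.90 TPM in ear (-2.33, SE 0.33, limma adjusted p = 0.00167). Both were near or under 0.5 TPM in lung and above 3 TPM in each ear library. The receptor gene Fzd1 and the Wnt-enhancing gene Rspo2 were lower, with log2 fold changes of -1.95 and -1.99. Only 4 of the lower calls were stable, and the lower count was 4 without lung number 2. The call higher was the ligand gene Wnt5a (1.03), and it was lost without ear number 2, ear number 3 or either lung library.

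FGF and BMP lists had medians near the -0.14 of all genes, while their shares called lower were above the 9.39% of all genes. Of 21 FGF genes tested, 5 were lower and 0 higher, with a median of -0.09, or 0.01 without ear number 1, -0.19 without ear number 2, -0.20 without ear number 3 and -0.25 without lung number 1. Fgf7, which encodes keratinocyte growth factor, was at 131 and 85.1 TPM in lung and 393, 286 and 346 TPM in ear (-1.67, SE 0.29, limma adjusted p = 0.00408). Fgfbp1, whose protein releases FGFs from matrix, was at 0.106 and 0.0641 TPM in lung and 14.7, 14.6 and 4.20 TPM in ear (-3.32). The ear values of both lay above lung throughout. The counts higher and lower were 0 and 3 without ear number 1, 1 and 4 without lung number 1 and 1 and 2 without lung number 2. The lung ligand gene Fgf10 was not called (1.46). Of 30 BMP genes, 2 were higher and 7 lower, with a median of -0.14, or -0.30 without lung number 1 and -0.23 without lung number 2. Fstl3, an activin antagonist gene, was the 1 stable call, at 56.3 and 39.9 TPM in lung and 17.5, 16.2 and 11.6 TPM in ear (1.61). The BMP counts were 1 and 1 without ear number 1, 1 and 6 without ear number 2, 1 and 2 without ear number 3, 4 and 5 without lung number 1 and 2 and 0 without lung number 2. Notch genes had 1 of 9 called, beside 17.5% of all genes. It was the target gene Hey1 (1.08), and its call was not stable.

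Guidance genes, which steer axons and also vessels and mesenchyme, held single strong differences within a list near the background. Sema3a, a secreted semaphorin gene, was at 99.5 and 93.8 TPM in lung and 7.67, 12.7 and 5.31 TPM in ear (3.42, SE 0.30, limma adjusted p = 1.18e-04). Its relative Sema3f was at 5.85 and 3.997 TPM in lung and 53.8, 40.9 and 38.1 TPM in ear (-2.94). The 2 class 3 semaphorins were thus higher in different tissues, each without overlap. Ntn1, the netrin gene, was at 0.476 and 0.905 TPM in lung and 27.7, 8.44 and 13.4 TPM in ear (-3.23), and Rgma, which encodes a repulsive guidance molecule, was lower, with a log2 fold change of -2.25. Of 41 genes tested, 3 were higher and 6 lower, with a median of -0.14, or -0.38 without ear number 3 and -0.28 without lung number 1. The counts were 3 and 3 without ear number 1, 2 and 3 without ear number 3, and 8 and 4 without lung number 1. Ephrins and their Eph receptors, which mark boundaries between cells, had 6 of 16 genes lower, 4 stably, and 0 higher. Their median was -0.78, or -0.26 without the filter. The ligand gene Efna1 was at 2.81 and 1.92 TPM in lung and 21.5, 15.6 and 22.4 TPM in ear (-2.63), and Efna5 was lower, with a log2 fold change of -1.92. Among the receptors, Ephb6 and Epha1 were lower, with log2 fold changes of -1.69 and -1.27. Sema3a lies on chromosome 5 at 13125414 to 13602565.

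Receptors for lipid mediators and vasoactive hormones were called in both directions, 10 higher and 7 lower of 35 tested, beside 8.14% and 9.39% of all genes. Their median was 0.35, or 0.23 without ear number 2, 0.16 without lung number 2 and -0.002 without the filter. Ptger2, a prostaglandin E2 receptor gene, was at 11.8 and 7.62 TPM in lung and 0.312, 0.396 and 0.587 TPM in ear (2.88, SE 0.29, limma adjusted p = 2.46e-04). Ptgs2, the inducible prostaglandin synthase gene, was at 189.8 and 314 TPM in lung and 67.9, 45.8 and 46.95 TPM in ear (2.19). Avpr1a, a vasopressin receptor gene, was at 1.39 and 1.01 TPM in lung and 73.97, 25.3 and 37.1 TPM in ear (-4.27). Ear libraries were above lung for Avpr1a throughout, and below it for the other 2. Oxtr, the oxytocin receptor gene, was listed at 0 in both lung libraries and was at 10.4, 4.45 and 2.78 TPM in ear. S1pr3, a sphingosine phosphate receptor gene, was lower, with a log2 fold change of -2.75 at 12 h and was not called at 0 h (-0.55); the difference between times was -2.21 (SE 0.72, limma adjusted p = 0.9999). The stable calls were 6 higher and 4 lower.

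Ion channel genes were called in both directions, 8 higher and 3 lower of 29 tested, beside 8.14% and 9.39% of all genes. The list median of -0.27 was 0.03 without ear number 1 or lung number 1 and -0.12 without ear number 3. It was -0.18 without lung number 2 and -0.009 without the filter. Kcnmb1, which encodes the regulatory subunit of the large calcium-activated potassium channel in smooth muscle, was at 13.1 and 8.75 TPM in lung and 0, 0 and 0.0937 TPM in ear. Kcnj8, which encodes the pore of an ATP-sensitive potassium channel, was at 18.8 and 5.44 TPM in lung and 0.535, 0.0137 and 0.173 TPM in ear (3.21, SE 0.41, limma adjusted p = 9.20e-04). The cation channel gene Trpv2, which macrophages also express, was higher by a log2 fold change of 3.53. In the other direction Cacna1g, a T-type calcium channel gene, was at 0.615 and 0.218 TPM in lung and 11.8, 5.81 and 7.04 TPM in ear (-2.66). The counts were 5 and 2 without ear number 1 or without lung number 2, 5 and 3 without ear number 3, and 7 and 1 without lung number 1. Cadherin and gap junction genes had 3 higher and 5 lower of 19; Cdh13, the cadherin that lacks a transmembrane part, and the protocadherin gene Pcdh19 were lower, with log2 fold changes of -2.42 and -2.30. Their counts were 2 and 3 without ear number 1, 3 and 3 without lung number 1, and 1 and 3 without lung number 2.

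Contractile genes were higher in lung. Actg2, smooth muscle gamma actin, was at 2353 and 892 TPM in lung and 1.94, 42.03 and 8.78 TPM in ear (7.08, SE 0.95, limma adjusted p = 0.00127). Myh11, the smooth muscle myosin heavy chain gene, was at 137 and 47.98 TPM in lung and 0.360, 1.05 and 0.442 TPM in ear (5.69, SE 0.39, adjusted p = 3.24e-05). Cnn1, the smooth muscle calponin gene, was at 999 and 432 TPM in lung and 1.93, 21.9 and 4.24 TPM in ear (6.54). Lung number 1 was above number 2 for these genes, ear number 2 was the highest ear library, and the groups did not overlap. Acta2, the alpha actin gene of myofibroblasts, was at 7861 and 4708 TPM in lung and 125, 1563 and 339.7 TPM in ear (3.91, adjusted p = 0.0229); its call was lost without either lung library, ear number 1 or ear number 3. Myl9, the regulatory light chain gene whose start region is shown above, was at 2511 and 1183 TPM in lung and 45.1, 298 and 78.99 TPM in ear (4.06, adjusted p = 0.00772, call lost without lung number 1). Of 27 genes listed, 26 passed the filter; 20 were higher, 11 stably, 0 were lower, and the median was 2.28. The count was 13 without ear number 3 and 12 without lung number 1. Summed over the list, TPM was 37722 and 21576 in lung and 4403, 10362 and 5470.3 in ear, and lung number 1 exceeded number 2 by 1.5-fold or more in 17 of the 26 genes. Among the 6 members not called were Cnn3, Myl6 and Tpm4, cytoskeletal genes that most cells use (0.21, 0.85 and 0.58). Vcl, the vinculin gene, which most cells also use, was called higher (1.23). Both lung libraries were above the 3 ear libraries for 24 of the 26 members, beside 16.8% of all genes. Actg2 lies on chromosome 6 at 83512905 to 83536265 and Myh11 on chromosome 16 at 14194535 to 14291372.

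Matrix glycoprotein genes were lower in lung or not called, with 1 exception. Thbs4, a thrombospondin gene of tendon and muscle, was at 0.115 and 0 TPM in lung and 42.9, 26.1 and 31.6 TPM in ear. Dpt, which encodes dermatopontin of skin matrix, was at 1.25 and 1.02 TPM in lung and 95.4, 48.7 and 28.8 TPM in ear (-4.62, SE 0.43, limma adjusted p = 1.59e-04). Efemp1, an elastic fibre-associated fibulin gene, was at 13.4 and 5.30 TPM in lung and 308, 143 and 147 TPM in ear (-4.30). Each ear library was above both lung libraries for these genes. Fbn2, the fetal fibrillin gene, was at 0.108 and 0.0435 TPM in lung and 17.04, 14.5 and 11.0002 TPM in ear (-3.80), while Fbn1 was not called (-0.40). Asporin (Aspn) and fibromodulin (Fmod), leucine-rich proteoglycans of tendon and skin, were lower, with log2 fold changes of -4.30 and -3.57. Spp1, the osteopontin gene, had the highest levels of the list, at 4026 and 8529 TPM in lung and 42463, 28597 and 23423 TPM in ear (-2.38, SE 0.43, adjusted p = 0.00551). Of 62 matrix glycoprotein genes tested, 25 were lower, 16 stably, and 1 higher, with a median of -1.004. The counts were 16 and 0 without lung number 2 and 23 and 3 without ear number 2. The gene higher was Npnt, nephronectin, an integrin ligand of lung matrix (1.79, not stable).

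Collagen genes were lower for 7 of 28 tested, 4 stably, and higher for 0, beside 9.39% and 8.14% of all genes. The list median was -1.001, or -0.52 without the filter. Col8a1, a short-chain collagen gene, was at 29.1 and 26.3 TPM in lung and 438, 379 and 237 TPM in ear (-3.57, SE 0.29, limma adjusted p = 6.91e-05). Col23a1, a transmembrane collagen gene, was at 0.493 and 0.302 TPM in lung and 104, 20.8 and 40.5 TPM in ear (-5.03). Col6a1 and Col6a2, which encode chains of microfibrillar collagen VI and lie side by side in the genome, were lower, with log2 fold changes of -2.88 and -2.76, with Col6a2 at 12.9 and 12.96 TPM in lung and 86.4, 129 and 72.5 TPM in ear. The lung values of these genes were close to each other and below each ear library. The fibrillar genes Col1a1, Col1a2, Col3a1, Col5a1 and Col5a2 were not called, with 0.05, -1.22, -1.76, 0.21 and 0.03. The count was 4 without ear number 1 or lung number 1. Col8a1 lies on chromosome 16 at 57624258 to 57754737.

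Proteases and their inhibitors were called in both directions, 11 higher and 6 lower of 37, beside 8.14% and 9.39% of all genes. The list median of -0.21 was -0.02 without ear number 1 and -0.43 without lung number 1. Mmp10, a stromelysin gene, was at 19.96 and 24.03 TPM in lung and 0.0128, 0.0729 and 0.123 TPM in ear (4.42, SE 0.25, limma adjusted p = 1.82e-05), and Plau, the urokinase gene, at 89.3 and 318 TPM in lung and 23.8, 29.4 and 21.7 TPM in ear (2.72). Mmp12, macrophage elastase, was at 297 and 984 TPM in lung and 7.43, 3.19 and 8.60 TPM in ear (6.28). Mmp10 was alike in the lung libraries, whereas Mmp12 and Plau were higher in lung number 2. Mmp2, gelatinase A of fibroblasts, was at 41.5 and 35.99 TPM in lung and 531, 179 and 247 TPM in ear (-2.86, call lost without either lung library). The counts were 7 and 5 without ear number 1 and 5 and 1 without lung number 2. Among integrins and other matrix receptors, 8 of 31 were higher and 5 lower, with a median of -0.06, or 0.02 without ear number 1, 0.06 without ear number 2, -0.10 without ear number 3, 0.20 without lung number 1 and -0.04 without lung number 2. The leukocyte integrin genes Itgb2, Itgam and Itgax were higher by log2 fold changes of 6.51, 5.12 and 4.34. Itga5, part of the fibronectin receptor, was at 146 and 176 TPM in lung and 19.4, 23.97 and 17.3 TPM in ear (2.94, SE 0.22, adjusted p = 5.26e-05). Itga3 and the syndecan gene Sdc4 were lower, with log2 fold changes of -1.67 and -1.68.

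Fibroblast markers were lower in lung for 7 of 16, 3 stably, and higher for 0, with a median of -1.98, and the count was 4 without lung number 2. Without ear number 1 the median was -1.17. Thy1, a surface marker of many fibroblasts, was at 53.1 and 31.8 TPM in lung and 270.3, 368 and 291 TPM in ear (-2.87, SE 0.44, limma adjusted p = 0.00237). Cd34, a marker of adventitial and dermal fibroblasts, was at 1.41 and 3.70 TPM in lung and 21.5, 34.01 and 45.3 TPM in ear (-3.30). Both were lower in each lung library than in each ear library. Decorin (Dcn), at 448 and 129 TPM in lung and 3964, 407 and 1662 TPM in ear, was not called (-2.52, adjusted p = 0.134), and ear number 2 lay within the lung range. The summed TPM of the list was 5165 and 6104 in lung and 15935, 13159 and 13068 in ear. The macrophage sums given next moved the other way between tissues, and their part in the fibroblast result was not tested.

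Macrophage markers had the highest median of the lists. Lyz2, the lysozyme gene of myeloid cells whose start region is shown above, was at 6451 and 13720.4 TPM in lung and 23.5, 17.7 and 31.9 TPM in ear (8.57, SE 0.37, limma adjusted p = 6.67e-06). Reads that Lyz2 shares with its neighbour Lyz1 may have been counted for either gene. Tyrobp, a signalling adaptor gene of myeloid receptors, was at 353 and 989 TPM in lung and 2.40, 1.10 and 2.71 TPM in ear (7.63). Spi1, which encodes the ETS factor PU.1 of myeloid cells, was at 21.1 and 96.3 TPM in lung and 0.299, 0.354 and 0.0788 TPM in ear (5.23, SE 0.54, adjusted p = 2.95e-04). Csf1r, the receptor gene on which macrophage survival depends, was at 10.2 and 111 TPM in lung and 0.483, 0.722 and 0.888 TPM in ear (4.39, SE 0.82, adjusted p = 0.00644). Lung number 2 was the higher lung library for each of these genes, and the ear libraries were far below both. Of 14 markers, 13 passed the filter, and the 13 were higher in lung, 12 stably, with a median of 5.12. The median was 4.07 without lung number 2 and 6.30 without lung number 1. Cd74, the invariant chain gene of antigen presentation, did not pass, at 0.449 and 2.81 TPM in lung. The markers summed to 7296 and 16818 TPM in lung and 46.3, 29.1 and 55.96 TPM in ear, and lung number 2 exceeded number 1 by 1.5-fold or more in 13 of 13. Lyz2 lies on chromosome 10 at 117277331 to 117282321 and Tyrobp on chromosome 7 at 30413760 to 30417585.

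Phagocyte genes followed the same order. Msr1, a scavenger receptor gene, was at 83.2 and 416 TPM in lung and 0.656, 0.623 and 0.602 TPM in ear (6.85, SE 0.58, limma adjusted p = 1.02e-04). C1qc, which encodes a chain of the complement component C1q, was at 34.9 and 143 TPM in lung and 0, 0.0264 and 0.0894 TPM in ear. Fcgr4, an Fc receptor gene, was at 33.6 and 50.8 TPM in lung and 0, 0.0520 and 0.154 TPM in ear. Both lung libraries exceeded an ear level at or near 0 for these 3 genes. Of 22 genes, 20 were higher, 13 stably, and the count was 13 without lung number 2; the toll-like receptor genes Tlr2 and Tlr4 were not called (1.05 and 0.11). Lung number 2 exceeded number 1 by 1.5-fold or more in 19 of the 22. Among lysosomal genes 14 of 32 were higher, 7 stably, and 0 lower, with a median of 1.29, or 0.58 without lung number 2. The cathepsin gene Ctss and the proton pump subunit gene Atp6v0d2 were higher by log2 fold changes of 7.50 and 6.15, while Lamp2, Glb1, Npc2 and Tpp1, which most cells express, were not called (-0.27, 0.17, 0.25 and 0.12). The lysosome count was 9, with 1 lower, without ear number 2, 9 without ear number 3 and 7 without lung number 2. Lung number 2 was the higher lung library by 1.5-fold or more in 25 of the 32, as for the macrophage markers, and the part of those markers in this result was not tested.

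**Figure D4:**
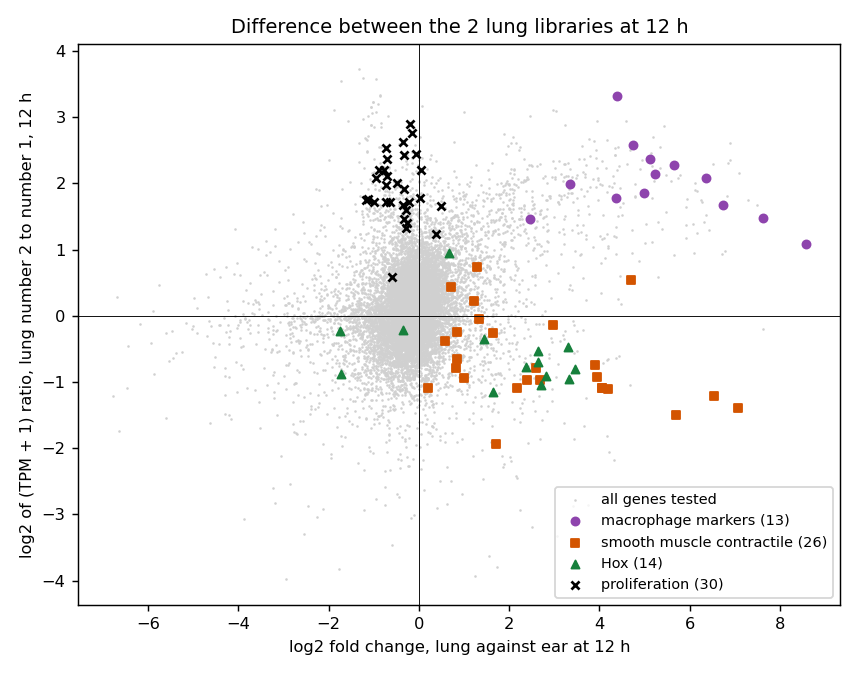
Each point is a gene; the horizontal axis is the log2 fold change, lung against ear at 12 h, and the vertical axis the log2 ratio of (TPM + 1) in lung number 2 to lung number 1. The 13 macrophage markers and the 30 proliferation genes lie above 0 on the vertical axis, and 17 of the 26 contractile genes and 8 of the 14 Hox genes are 1.5-fold or more below it.

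The lung libraries differed from each other along those lines. Lung number 2 exceeded number 1 by 1.5-fold or more in 2783 of the 12858 genes and the reverse held in 1369. Among the 1046 genes higher in lung the numbers were 503 and 127. Proliferation genes split the libraries of both tissues rather than the tissues. Mki67, a marker of cycling cells, was at 2.42 and 20.03 TPM in lung and 3.13, 22.5 and 12.1 TPM in ear, and Top2a, which encodes a topoisomerase of dividing cells, at 6.68 and 38.5 TPM in lung and 10.8, 58.6 and 31.3 TPM in ear. In each tissue number 1 was the lowest library and the ranges overlapped. Of 30 proliferation genes, 0 were called by limma, and the list sum was 348 and 1325 TPM in lung and 375, 1666 and 1093 TPM in ear. The median of -0.35 was 0.48 without lung number 1, -1.52 without lung number 2, -1.06 without ear number 1 and 0.03 without ear number 2.

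Chemokine genes were called in both directions. Ccl6, a CC chemokine gene of myeloid cells, was at 1216 and 1065 TPM in lung and 11.2, 1.37 and 5.66 TPM in ear (7.62, SE 0.61, limma adjusted p = 6.82e-05). Ccl3 and Ccl4, attractants of monocytes, were higher by log2 fold changes of 5.40 and 5.17, and the receptor gene Ccr1 by 4.88. Of 15 CC genes tested, 7 were higher and 0 lower, or 6 and 1 without ear number 2. The CC median of 0.53 was 0.95 without ear number 1, 0.97 without ear number 2, 0.85 without ear number 3 or lung number 1 and 1.57 without lung number 2. The genes Ccl2, Ccl7 and Ccl11, which fibroblasts make, were not called (0.43, -0.67 and 0.47). In the CXC list 4 of 13 were higher and 5 lower, 4 and 1 stably, with a median of -0.91, or -0.11 without the filter. Pf4, platelet factor 4 of platelets and macrophages, was at 167 and 1021 TPM in lung and 3.22, 0.702 and 4.90 TPM in ear (6.89). Cxcl12, the stromal chemokine gene, was at 264 and 190.5 TPM in lung and 2003, 685 and 1524 TPM in ear (-2.51, SE 0.45, adjusted p = 0.00560). Ear was above lung for Cxcl12 in every library and below it for Pf4. The neutrophil attractant genes Cxcl1 and Cxcl5 spread widely in ear, with Cxcl5 at 42.8 and 13.96 TPM in lung and 2876, 302 and 2167 TPM in ear (-5.59, call lost without lung number 2). The lower CXC count was 2 without lung number 2, and the CXC median was -1.52 without it and -0.49 without lung number 1.

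Genes of the interleukin 1 and interleukin 6 families were called in both directions, 6 higher and 10 lower of 22, with a median of -1.29. Il1rl1, which encodes the interleukin 33 receptor, was at 26.7 and 28.1 TPM in lung and 1563, 1237 and 2519.9 TPM in ear (-5.90, SE 0.33, limma adjusted p = 1.82e-05), so the ear mean was 64.8 times the lung mean in TPM. Its ligand gene Il33 was at 10.3 and 2.77 TPM in lung and 143, 5.94 and 56.4 TPM in ear and was not called (-2.56, adjusted p = 0.196). Receptor levels separated the tissues while ligand levels overlapped. Il11, a fibroblast cytokine of the interleukin 6 family, was at 86.8 and 66.4 TPM in lung and 7.81, 8.49 and 7.23 TPM in ear (3.12, SE 0.22, adjusted p = 3.24e-05). Il6st, the gene for the shared receptor chain gp130, was at 315 and 179 TPM in lung and 2239, 1258 and 1290.4 TPM in ear (-2.69). The gp130 partner Il11ra1 was lower in lung as well (-1.33, call lost without either lung library). The counts were 4 and 4 without lung number 2. Il1rl1 lies on chromosome 1 at 40429570 to 40465415 and Il11 on chromosome 7 at 4772373 to 4782859.

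Complement genes were called in both directions. C3, the central component, was at 4.12 and 6.65 TPM in lung and 256, 74.3 and 119.6 TPM in ear (-4.41, SE 0.67, limma adjusted p = 0.00229). C4b, of the classical pathway, was at 1.98 and 1.55 TPM in lung and 279, 75.8 and 83.8 TPM in ear (-5.47). The receptor gene C3ar1, a myeloid gene, was at 21.7 and 105 TPM in lung and 0.127, 0.192 and 0.305 TPM in ear (5.35). C3 and C4b were lower in lung in each library and C3ar1 higher. Cfp, which encodes properdin, and the receptor gene C5ar1 were higher by log2 fold changes of 4.32 and 4.15. Of 15 genes, 3 were higher and 5 lower, with a median of -1.02, and the lower count was 3 without lung number 1 and 2 without lung number 2. Interferon-stimulated genes had 1 of 20 higher and 4 lower, 1 and 1 stably, with a median of -0.72. Of all genes tested, 8.14% were higher and 9.39% lower. Oas1a was higher by a log2 fold change of 2.90 and Ifit1 lower, at -2.04.

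Several genes with the largest differences in favour of ear belong to innate immunity and the cell surface. Ly6a, the gene of the stem cell antigen Sca-1, was at 15.2 and 18.6 TPM in lung and 2862, 1142 and 1929.5 TPM in ear (-6.70, SE 0.39, limma adjusted p = 1.82e-05). Ptx3, a secreted pentraxin gene, was at 3.97 and 2.64 TPM in lung and 472, 226 and 479 TPM in ear (-6.45, SE 0.37, adjusted p = 1.82e-05). The chitinase-like gene Chil1 was at 1.38 and 0.114 TPM in lung and 101, 74.01 and 394 TPM in ear (-6.47), with ear number 3 above the others. The 3 genes were higher in each ear library than in either lung library. Lbp, the lipopolysaccharide-binding protein gene, Steap4, a metalloreductase gene, and Mme, which encodes the peptidase neprilysin, were lower, with log2 fold changes of -5.25, -5.87 and -5.93. Angptl7 was at 1.54 and 2.51 TPM in lung and 201, 119 and 172 TPM in ear (-5.76). The remaining genes of the 15 lowest stable calls were Rarres2, Il1rl1, C4b and Myl1, described elsewhere here, and 1500015O10Rik, Sectm1a, Lrrn4cl and Abi3bp. Of the 15 highest, Lyz2, Tyrobp, Ccl6, Ctss, Pf4, Msr1, Fcer1g, Fcgr3, Lcp1, Lilrb4a and the lectin receptor genes Clec4d, Clec7a and Clec4n are myeloid genes, Actg2 is contractile, and Npy encodes neuropeptide Y. Npy was at 79.2 and 409 TPM in lung and 0.569, 0.222 and 0.839 TPM in ear (6.90, SE 0.62, adjusted p = 1.38e-04), with lung number 2 above number 1. Ly6a lies on chromosome 15 at 74994877 to 74998031, and its family members may share reads.

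Striated muscle genes were higher in ear at 12 h. Myl1, a fast myosin light chain gene, was at 0.311 and 0.0986 TPM in lung and 42.6, 29.95 and 145 TPM in ear (-5.60, SE 0.79, limma adjusted p = 0.00164). Actc1, the cardiac actin gene that immature skeletal muscle also uses and whose start region is shown above, was at 0.146 and 0.0394 TPM in lung and 22.3, 11.5 and 43.5 TPM in ear (-4.43). Ear number 3 held the highest values, and each ear library was above both lung libraries. The myogenic factor gene Myog was at 0.0308 and 0 TPM in lung and 3.25, 1.46 and 10.8 TPM in ear (-2.29, call lost without either lung library), and Pax7, a marker of muscle stem cells, was listed at 0 in the 5 libraries. Of 27 genes listed, 20 passed the filter; 17 were lower in lung, 8 stably, with a median of -2.33, and the count was 10 without lung number 1 and 9 without lung number 2. Desmin (Des), which smooth muscle also expresses, was the gene higher in lung (2.98). The list, Des included, summed to 120.2 and 116 TPM in lung and 245, 182 and 828 TPM in ear.

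At 0 h the muscle genes did not separate the tissues. Of the 20 tested, 0 were lower in lung by limma at 0 h and 1, Des, was higher, against a background of 11.3% of the same 12858 genes called at 0 h. Myl1 was at 0 and 3.42 TPM in lung and 3.61, 2.07 and 9.43 TPM in ear at 0 h, and Actc1 at 3.32 and 0.512 TPM in lung and 2.02, 2.14 and 2.88 TPM in ear. These ranges overlap, and the ear values at 0 h are below those at 12 h. The difference between times was tested as an interaction of tissue and time. It was -4.27 (SE 1.12) for Myl1 and -4.05 (SE 0.76) for Actc1, with limma adjusted p = 0.9999 for both. The tissue difference in muscle genes is therefore not shown to depend on time.

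Over all genes the tissue differences at the 2 times were alike in direction. Of 1046 genes higher at 12 h, 1041 had the same sign at 0 h and 649 were also called higher there. Of 1208 lower at 12 h, 1183 had the same sign at 0 h and 543 were called lower there, and 0 genes were called in opposite directions. The median log2 fold change of the higher genes was 1.82 at 12 h and 1.40 at 0 h, and that of the lower genes -1.31 and -0.95; the genes were chosen at 12 h, which favours the larger value there. Across genes the fold changes correlated at 0.901, a description over genes that share a fit. At 0 h 6.1% of genes were called higher and 5.22% lower. For the interaction 0 genes (0.0%) passed limma's threshold, and 379 (2.95%) had an unadjusted p under 0.05. Without lung 12 h number 1 the count was 26. Ccl12, a monocyte chemoattractant gene, had the lowest adjusted p (interaction 2.61, SE 0.28, adjusted p = 0.0695). It was at 1.62 and 1.78 TPM in lung at 0 h and 14.3 and 18.6 TPM at 12 h, listed at 0 in ear at 0 h, and at most 0.164 TPM in ear at 12 h. C1qc was at 13.9 and 7.37 TPM in lung at 0 h, below both 12 h lung values, with an interaction of 2.71 (adjusted p = 0.9999).

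**Figure D5:**
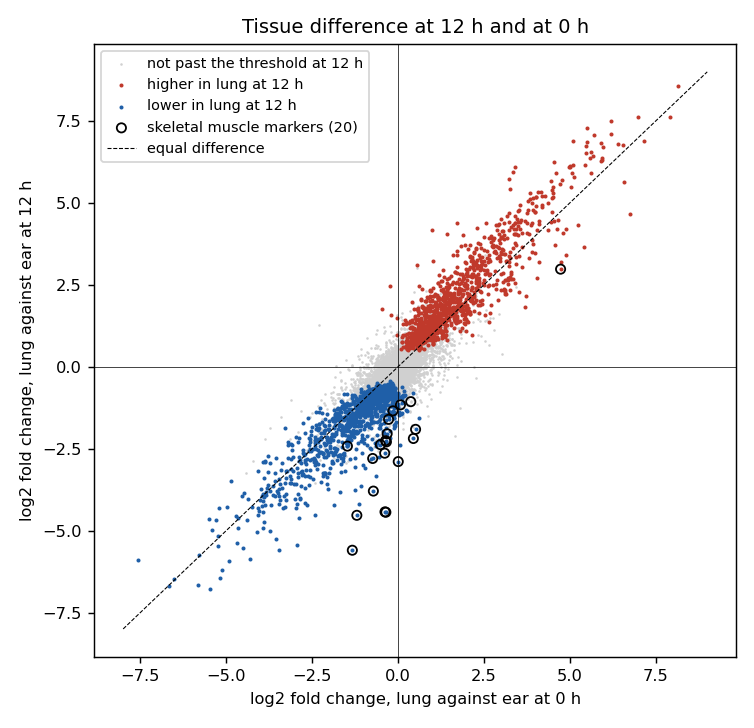
Each point is 1 of the 12858 genes; the horizontal axis is the log2 fold change, lung against ear, at 0 h and the vertical axis the same at 12 h, with red and blue for the genes called higher and lower at 12 h. The dashed line marks equal differences, and the 20 skeletal muscle markers, circled, fall below it, with Myl1 at -1.33 at 0 h and -5.60 at 12 h.

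Markers of other cells were called in both directions, in lists of few members. Of all genes tested, 8.14% were higher and 9.39% lower. Among alveolar and airway markers 4 of 10 passed the filter and 3 were higher in lung; the surfactant gene Sftpc was at 4.14 and 4.72 TPM in lung and 0, 0.0364 and 0.123 TPM in ear, and Nkx2-1, the factor gene of lung epithelium, did not exceed 0.0933 TPM. The count was 1 without ear number 3 or lung number 2. Epithelial markers had 2 of 7 higher, Krt8 and Krt18 (2.23 and 2.04, both lost without lung number 2, and Krt8 also without ear number 1 or 3), and 1 lower, Trp63, a factor gene of stratified epithelium, at 0.0523 and 0 TPM in lung and 7.14, 4.61 and 6.35 TPM in ear. The basal keratin genes Krt5 and Krt14 did not exceed 0.565 and 2.06 TPM. Msln, the mesothelin gene, was at 1.07 and 2.47 TPM in lung and 35.97, 71.8 and 50.4 TPM in ear (-4.27), whereas the other 3 mesothelial markers tested were not called, and 1 of them was without ear number 1. Chondrocyte markers were lower in lung for 5 of 8, Sox9 and Hapln1 stably, with a median of -2.01. The count was 2 without either of ear numbers 1 and 2 or either lung library, and Acan, the aggrecan gene, did not exceed 1.78 TPM. Endothelial markers had 1 of 7 higher and 4 lower, with Plvap at 0.136 and 0.122 TPM in lung and 3.50, 1.56 and 3.86 TPM in ear, and the lower count was 2 without lung number 2. Adipocyte markers had 1 of 8 called, Plin4 (-3.94, lost without ear number 3 or either lung library), with Adipoq at 0.0542 and 0 TPM in lung and 7.27, 8.23 and 2.17 TPM in ear. Of 5 melanocyte and Schwann cell markers tested 0 were called. Of 12 lymphocyte markers only Trac passed the filter, at 3.88 and 3.96 TPM in lung and 0.565, 0.850 and 0.204 TPM in ear. Of 4 Y-linked genes listed, Uty passed the filter, at 45.5 and 33.3 TPM in lung and 89.2, 70.4 and 76.02 TPM in ear (-0.99, limma adjusted p = 0.0206, call lost without ear number 1, ear number 3 or lung number 2), and its reads may be shared with its X-linked relative. Ddx3y, Eif2s3y and Kdm5d did not exceed 0.758 TPM in the 5 libraries. Summed over the list, adipocyte markers were at 61.7 and 237 TPM in lung and 585, 299.6 and 453 TPM in ear, and chondrocyte markers at 21.8 and 21.9 TPM in lung and 217, 166 and 56.9 TPM in ear. The part of these cells in the differences above was not tested.

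Cholesterol synthesis genes were lower in lung for 9 of 24, 2 stably, and higher for 0, beside 9.39% and 8.14% of all genes. The list median was -0.70. Stard4, a sterol carrier gene, was at 8.95 and 12.5 TPM in lung and 30.4, 21.1 and 27.9 TPM in ear (-1.23, SE 0.23, limma adjusted p = 0.00675). Cyp51, a demethylase of the pathway, was at 26.5 and 28.6 TPM in lung and 53.1, 52.2 and 58.3 TPM in ear (-0.96). Both genes were lower in each lung library than in each ear library, by less than the genes above. The count was 4 without ear number 1 or ear number 3 and 3 without lung number 1.

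Some differences lay side by side in the genome. Besides the Hoxb run, 6 further runs of 5 or more neighbouring tested genes were called in 1 direction. Of these, 4 were higher in lung and hold myeloid genes, namely Ccl9 to Wfdc17 on chromosome 11 at 83572919 to 83706268, 6 Cd300 receptor genes on chromosome 11 at 114890041 to 115133992, Clec4a3 to Clec4e on chromosome 6 at 122952515 to 123289870, and 7 genes from Pirb to Lair1 on chromosome 7 at 3711409 to 4063204. Lower in lung were 5 Ly6 genes on chromosome 15 at 74955051 to 75111970 and Wfdc12, Slpi, Matn4, Rbpjl and Sdc4 on chromosome 2 at 164189231 to 164443887. Most of these genes have a relative of the same family within their run, which may share reads with them.

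Start regions were searched for 4 motifs, in windows from 250 bases before to 50 after the start site. The search covered the 9934 of 12851 tested symbols with a RefSeq promoter. AGGAAGT and the CArG box were searched on both strands, CAGCTG and TATAAA on the gene's strand only. CAGCTG reads the same on both strands. AGGAAGT was present in 10.6% of all promoters, in 20.4% of those of genes higher in lung (159 of 779) and in 8.34% of those of genes lower in lung (76 of 911). For stable calls the shares were 24.3% and 9.09%. Among macrophage markers 3 of 8 promoters held it, and among phagocyte genes 4 of 16. The CArG box, matched strictly, was present in 1.58% of all promoters, 3.47% of those higher and 1.76% of those lower, in 5 of 23 contractile genes and in 2 of 17 skeletal muscle genes. CAGCTG, an E-box bound by myogenic factors, was present in 17.8%, 20.8% and 21.1%, in 8 of 17 skeletal muscle genes and in 5 of 8 macrophage markers. TATAAA was present in 5.45%, 6.55% and 8.34%, and in 5 of 17 skeletal muscle genes; in 1 promoter it lay inside a CArG box. In the Lyz2 sequence above the AGGAAGT match begins 100 bases before the start site, in C1qc 195, and the CArG box begins 161 bases before it in Myl9 and 47 in Actc1. These matches are descriptions of letters, and no test was made of them.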

How the data were processed

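RNA of 10 libraries from mouse lung and ear cells labelled as fibroblasts, at 0 h and 12 h post-mortem, had been extracted as total RNA with the Qiagen AllPrep kit, per the labels' protocols. The authors deposited TPM per transcript for each library; kallisto 0.44.1 and the build GRCm38 are named in the submitters' processing notes, and the transcript set is not given in the sources used here. TPM has no depth, so no interval or floor could be given.

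Of 61440 transcripts, 60503 matched the GENCODE vM21 annotation by transcript identifier (56128 with the same version) and were summed to 22594 genes; the 937 unmatched held 0.508% to 0.590% of TPM. Genes at 1 TPM or more in at least 2 of the 5 libraries at 12 h were kept. limma 3.58.1 in R 4.3.3 was fitted to log2(TPM + 1), with a pseudocount of 1, 4 group means over the 10 libraries and an intensity trend (6 residual degrees of freedom, 3.22 prior). Differences are lung minus ear, understate changes of genes with low TPM, and carry p-values adjusted by Benjamini-Hochberg for all genes tested (threshold 0.05). The fit was run on simulated data with 200 changed genes, whose spread was independent between genes and libraries. That simulation held no library-wide differences such as those between the lung libraries. Stable calls also passed in fits without each 12 h library.

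Named genes were the 15 stable calls with the largest differences in each direction and up to 4 called members of each gene list. Those members were taken with stable calls first, then by size of the difference. The members and lists were chosen with earlier results of these data known, and other members named were chosen after their values were seen. List symbols that did not match the annotation, among them 5 older symbols of matrix genes, were not used. Alternatives were other pseudocounts, filters, scalings, weights, a fit of 12 h alone, a replicate block and leaving out each library. Promoter sequences came from RefSeq (GRCm38.p6), for 9934 of 12851 symbols.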

Additional observations from a re-analysis of the deposited data

How the results depend on the processing

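Of 160 named genes, 0 changed direction in 16 alternatives, 128 kept their call in each and 32 lost it in some, most often without lung number 2. Named genes were picked with stable calls first, so their retention in fits without 1 library was partly built in. These counts do not describe all calls, whose stable part is given above. The 2254 calls at 12 h became 1480 with array weights and 1180 with the replicate block; leaving out 1 library gave 1355 to 2039. The 1046 higher became 614 with the replicate block and 700 to 1129 without 1 library. The 1208 lower became 780 with the 12 h libraries alone, 664 with array weights, 566 with the replicate block and 655 to 1087 without 1 library. At 0 h the 1455 calls became 2349 with array weights, 753 with the replicate block and 1207 to 1687 without 1 library. The interaction count of 0 became 2 without the filter, 1 without the trend, with a pseudocount of 5, with quantile or with upper-quartile scaling, and 0 to 26 without 1 library, the 26 without lung number 1. The cause of these shifts was not tested. Fits of 12 h alone could not be fitted for 0 h or the interaction. The labels do not pair libraries across tissues by their numbers. Deviations from the group means correlated at 0.266 and 0.26 for the 2 shared numbers at 12 h. The deviations of 2 lung libraries are exact opposites, so these 2 values are not separate observations. Calls higher outnumbered calls lower with quantile scaling (1261 and 1111), upper-quartile scaling (1186 and 1148), array weights (816 and 664), the replicate block (614 and 566) and without lung number 1 (1129 and 910), lung number 2 (700 and 655) or ear number 1 (812 and 761). Of 24 cholesterol genes, 0 were called with the replicate block, against 9. The median over all genes of -0.14 became -0.06 with quantile and -0.08 with upper-quartile scaling. With 2 lung libraries, the spread within lung rests on 1 difference at each time, and depth is unknown.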
